A study of Mus musculus with 12 samples.

Results

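The response of Fto-knockdown 3T3-L1 cells to adipogenic induction was examined from the preadipocyte stage (Pre) to the mitotic clonal expansion stage (MCE). The genes described are those that reached 1 TPM or more in 2 or more of the 4 libraries compared, which were 13957 of the 55487 genes in the table. TPM is a level corrected for transcript length and set to a common total in each library. 3T3-L1 is a mouse fibroblast line that accumulates lipid and turns into adipocyte-like cells after a hormonal cocktail. The cells studied here carried a lentiviral hairpin against Fto (shFto) and were compared as growth-arrested preadipocytes and as cells at MCE, with 2 libraries each. The control line carried a scrambled hairpin (shScram) and was sampled at the same stages, also with 2 libraries each, and both lines were sampled once more after differentiation (Diff). All cells had been infected and selected with puromycin, and the MCE and Diff cells had been induced with MDI medium after confluence, while the Pre cells had not. The hairpin vector drives its RNA from a U6 promoter and also encodes a red fluorescent protein. The labels name neither which of the Fto hairpins the sequenced cells carried nor the day on which these libraries were collected, and nothing states that the replicates were separate cultures, so the p-values measure the spread between these libraries.

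MDI medium holds a phosphodiesterase inhibitor (IBMX), which raises cyclic AMP, the glucocorticoid dexamethasone and insulin. In 3T3-L1 cells these signals are known to bring confluent, arrested preadipocytes back into the cell cycle for a few divisions, which is the clonal expansion. Early in this phase C/EBPβ and C/EBPδ are made, and they later activate PPARγ and C/EBPα, the regulators that switch on the genes of the fat cell. Fto encodes a demethylase that removes N6-methyladenosine (m6A) and related marks from RNA.

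Fto itself was the first gene checked. Fto (chr8:91313525-91668439 of GRCm38) held 5.51 and 5.55 TPM in shFto preadipocytes and 6.32 and 6.03 TPM at MCE. The shScram libraries held 52.7 and 58.3 TPM and 59.1 and 55.7 TPM at the same stages, so each shFto library lay below every shScram library. Within shFto cells the log2 change was 0.14 ± 0.09 (SE) and was not past the threshold (limma, adjusted p = 0.231).

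The libraries were checked for depth, replicate spread and cell type. The depth behind each value is unknown, because TPM values do not retain it, and 20853 to 24018 genes were above 0 per library. The replicates correlated with r = 0.992 (over genes, which do not count as replicates) in shFto Pre and 0.993 in shFto MCE, against 0.939 in shScram Pre. The shScram Pre pair was therefore left out of the spread for the main comparison. The share of TPM from mitochondrially encoded genes was 4.79% to 5.44% in the 4 shFto libraries, and 7.34% and 14.53% in shScram Pre. Of 10 fibroblast markers 9 were measured, with a summed level of 8356 and 8212 TPM at Pre and 6482 and 6293 TPM at MCE, and 4 of them rose and 3 fell between the stages. Of 8 mesenchymal progenitor markers 6 were measured, of which 3 rose and none fell. The 2 fibroblast markers that were not called were S100a4 and Vim, an intermediate filament protein of mesenchymal cells, at 2411 and 2361 TPM at Pre and 2219.8 and 2165 TPM at MCE. The adipocyte hormone gene Adipoq was listed at 0 in both Pre libraries and at 0.984 and 1.25 TPM at MCE. The 7 endothelial, 6 epithelial and 6 skeletal muscle markers were all under the minimum, with summed levels of 0 to 2.03 TPM per library. Of 9 macrophage markers 3 passed the minimum, and the summed level was 29.9 and 32.2 TPM at Pre and 50.3 and 49.7 TPM at MCE. Most of that sum was Cd14, a co-receptor for lipopolysaccharide, while the defining markers Ptprc, Adgre1, Itgam and Tyrobp were listed at 0 in all 4 libraries.

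Between the stages a large share of the transcriptome differed. A gene was called when limma on log2(TPM + 1) gave an adjusted p under 0.05 and a fold change over 2. By this rule 2538 of 13957 genes were called, or 18.2%, of which 757 (5.42%) rose and 1781 (12.8%) fell. Over all 15968 genes tested in the series, 2600 (16.3%) were called in this contrast, with 765 (4.79%) higher and 1835 (11.5%) lower. At any fold 7838 genes passed the adjusted threshold, 2476 of them higher and 5362 lower. Folds over 4 were reached by 212 genes that rose and 327 that fell. In 11157 genes (79.9%) both MCE libraries lay on one side of both Pre libraries, and every called gene was among these. Of the genes that rose, 176 had a mean under 1 TPM at Pre, and of those that fell 622 had a mean under 1 TPM at MCE. Log2 changes are given as MCE minus Pre of log2(TPM + 1), a scale on which the change of weakly expressed genes appears smaller than it is. The libraries are bulk RNA, in which a change in the share of cells that express a gene and a change in its level per cell cannot be told apart.

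The balance of rises and falls depended on the scaling between libraries. The median log2 change of all genes was -0.17, and it was -0.02 after median-ratio scaling and 0.01 after quantile normalization. The genes that rose made up 29.8% of the calls as reported, 39.7% after median-ratio scaling (938 higher, 1426 lower) and 46.9% after quantile normalization (1013 higher, 1148 lower). Changes are best read against that median of -0.17.

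**Figure D1:**
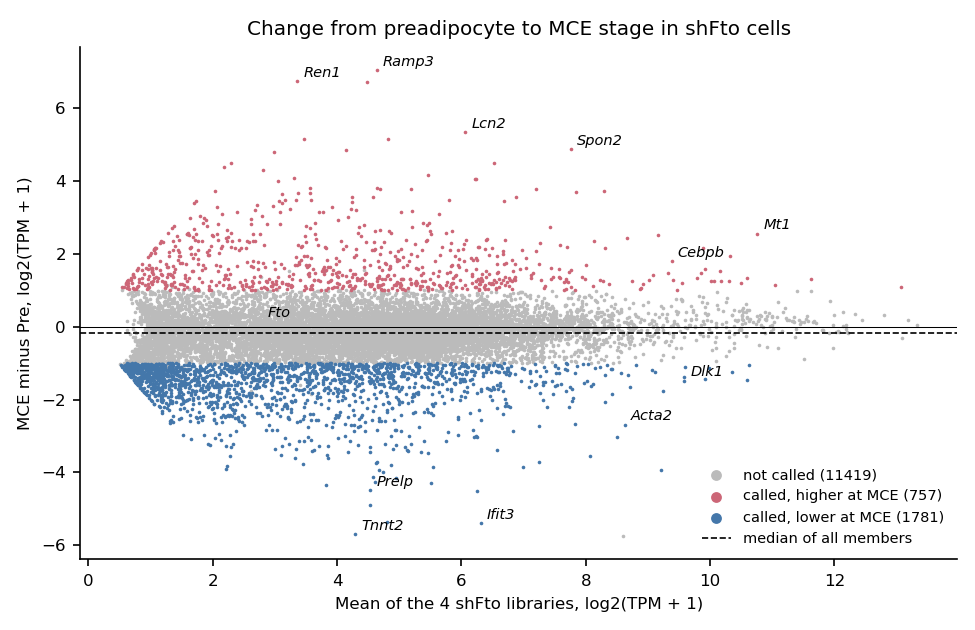
Log2 change from Pre to MCE (vertical axis) against the mean log2(TPM + 1) of the 4 shFto libraries (horizontal axis), 1 point per gene. Called genes are coloured (757 higher, 1781 lower) and the dashed line is the median of all genes at -0.17. Genes that fell were more numerous, and Ramp3 and Tnnt2 marked the ends among the called genes.

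The 3 genes with the largest rises were scarcely present in preadipocytes. Ramp3, a receptor activity-modifying protein that pairs with the calcitonin receptor-like receptor, held 1.63 and 0.803 TPM at Pre and 286 and 281 TPM at MCE, a log2 change of 7.03 ± 0.20 (SE; limma, adjusted p = 4.46e-09). Ren1, which encodes renin, was listed at 0 in both Pre libraries and reached 109 and 101 TPM at MCE. Prg4, the lubricating proteoglycan of joints, went from 1.17 and 1.24 TPM to 225 and 230.4 TPM. All 3 were at or near 0 before induction in both libraries.

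Lcn2, an iron-siderophore carrier of the acute phase, rose from 11.4 and 7.93 TPM to 417 and 424 TPM. Spon2, a secreted matrix protein, rose from 42.4 and 35.9 TPM to 1148 and 1188 TPM and had the highest level at MCE among the 12 genes with the largest rises. Hsd11b1, the enzyme that regenerates active glucocorticoid inside cells, rose from 2.18 and 2.47 TPM to 92.1 and 95.4 TPM. The other genes of this group were Pi15 (log2 change 5.15), the keratins Krt13 (5.14) and Krt15 (4.50), the serine protease inhibitor Serpina3n (4.78), the G protein regulator Rgs2 (4.49) and the resistin-like gene Retnla (4.37). Retnla was listed at 0 at Pre and held 19.6 and 19.7 TPM at MCE.

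The largest falls were dominated by genes that respond to interferon. Tnnt2, cardiac troponin T, was the exception at the top, with 139 and 139 TPM at Pre and 1.58 and 1.90 TPM at MCE, a fall of 5.68 ± 0.16 (SE) on the log2 scale (limma, adjusted p = 4.17e-09). The matrix proteoglycans Prelp and Ogn fell by 4.48 and 4.28 on the log2 scale, with Prelp going from 105 and 112 TPM to 4.91 and 3.08 TPM and Ogn from 182 and 219.7 TPM to 11.1 and 7.79 TPM. The other 9 of the 12 genes with the largest falls were Ifit3, Ifit3b, Oas2, Usp18, Phf11d, Oas1g, Tgtp1, Mx2 and Irf7. Each of these 9 held at least 62.2 TPM in both Pre libraries and at most 16.4 TPM in both MCE libraries. Ramp3, Pi15, Prelp and Usp18 share exonic bases with non-coding genes on the opposite strand, Prg4 with Tpr and Irf7 with Phrf1. Whether the counting used strand is not given in the sources used here, so the assignment of reads to these genes is uncertain.

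The gene lists show which functions these changes belonged to. Replication-dependent histones, glucocorticoid and cyclic AMP responses, glycolysis and DNA replication stood at the upper end, and interferon-stimulated genes stood alone at the lower end. The lists are described by their counts and medians, since they were chosen with results of these data known. Each count is to be read beside the shares of all genes, of which 5.42% rose and 12.8% fell.

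**Figure D2:**
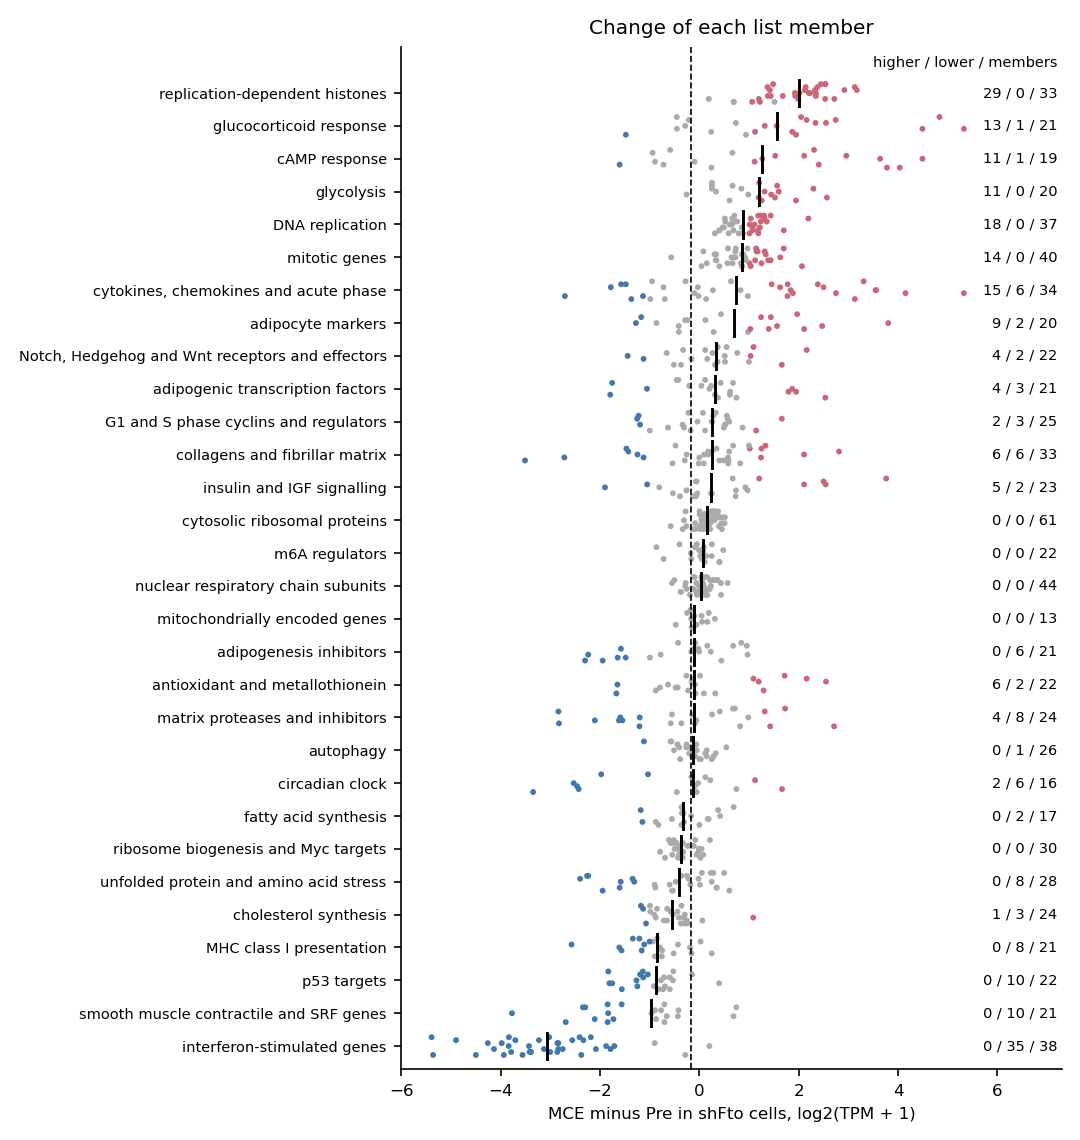
Log2 change from Pre to MCE for every member of 30 gene lists, ordered by the list's median (black bar), with called genes in red (higher) and blue (lower). Numbers at the right give the genes higher, lower and measured, and the dashed line is the median of all genes at -0.17.

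Interferon-stimulated genes are the antiviral genes that a cell switches on after interferon, through the factor ISGF3, which binds the interferon-stimulated response element (ISRE). Of the 38 listed, all were measured, 35 fell and none rose, where 12.8% of all genes fell. Their median log2 change was -3.07, and it was -2.91 after median-ratio scaling and -2.89 after quantile normalization. The summed level of the list was 7957 and 8165 TPM at Pre and 832 and 847 TPM at MCE. RefSeq promoter windows of GRCm38.p6, from 250 bases before to 50 bases after a gene's start, were found for 29 of the 38 genes. The letters GAAANNGAAA, an ISRE core, occurred on either strand in 19 of these 29 windows (65.5%) and in 3.99% of 27025 genes with a window. Stretches upstream of the start are shown for the 4 genes with the largest falls that carry the letters there, with the matching bases in capitals, since the letters were found in most windows of this group.
Ifit3, chr19:34583373-34583446, plus strand: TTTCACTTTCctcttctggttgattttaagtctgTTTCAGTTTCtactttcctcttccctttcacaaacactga
Ifit3b, chr19:34607769-34607842, plus strand: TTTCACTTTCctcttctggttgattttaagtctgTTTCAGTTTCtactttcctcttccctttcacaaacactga
Oas1g, chr5:120887614-120887655, minus strand: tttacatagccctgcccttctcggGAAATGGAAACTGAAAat
Bst2, chr8:71537557-71537626, minus strand: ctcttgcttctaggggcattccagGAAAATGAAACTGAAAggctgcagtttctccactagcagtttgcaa

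The stretches of Ifit3 and its copy Ifit3b were the same letter for letter. They lie upstream of the start, and whether reads of this pair were split between the genes was not tested. In Oas1g and Bst2 overlapping matches form a longer run. A match describes letters, not binding.

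Among the genes of this list, Ifit3, a translation-inhibiting antiviral protein, held 497 and 529 TPM at Pre and 10.8 and 11.8 TPM at MCE and fell by 5.39 ± 0.24 (SE) on the log2 scale (limma, adjusted p = 6.05e-08). Ifit3b held 169 and 189 TPM at Pre and 3.35 and 3.41 TPM at MCE. Oas2 and Oas1g, which make the 2′-5′ oligoadenylate that activates RNase L, fell by 4.90 and 4.26 on the log2 scale. Usp18, which removes ISG15 from proteins and damps interferon signalling, went from 359 and 360.1 TPM to 13.6 and 16.4 TPM. Mx2, an antiviral GTPase, went from 97.6 and 101 TPM to 4.30 and 5.17 TPM, and Irf7, the factor that amplifies interferon production, from 104 and 106 TPM to 5.40 and 6.05 TPM. In all of these genes both MCE libraries lay far below both Pre libraries, and no called gene of any list had overlapping stages. Irf1, which also responds to interferon gamma, held 77.9 and 89.5 TPM and 98.6 and 93.8 TPM and was not called, and neither was the GTPase Gbp2 (log2 change -0.90).

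Genes of MHC class I presentation, which cut and load peptides for display to T cells, followed in part. Of 21 measured 8 fell (38.1%, beside 12.8% of all genes) and none rose, with a median log2 change of -0.85. The counts were 5 after median-ratio scaling, 6 after quantile normalization and 5 with the spread taken over all 12 libraries. Nlrc5, the transactivator of class I genes, fell from 27.9 and 33.3 TPM to 4.28 and 4.31 TPM. H2-T23 and H2-T22, non-classical class I chains, fell by 1.61 and 1.56 on the log2 scale, and Tapbp, the peptide-loading chaperone, by 1.34. The light chain B2m went from 4004 and 3979 to 2056 and 2238 TPM and the heavy chain H2-D1 from 2062 and 1976 to 1727 and 1822 TPM without being called.

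Genes of the cell cycle were higher at MCE. All 37 genes of DNA replication had a log2 change above 0, where 5127 of 13957 genes did, and 18 of them rose while none fell, with a median of 0.88. Rrm2, the small subunit of ribonucleotide reductase, held 34.0 and 36.4 TPM at Pre and 169 and 161 TPM at MCE (log2 change 2.19 ± 0.11, SE; limma, adjusted p = 1.86e-07). Cdc6, which loads the replicative helicase, went from 4.63 and 4.67 TPM to 17.8 and 16.9 TPM, and Mcm5, a subunit of that helicase, from 55.9 and 48.2 TPM to 134 and 135 TPM. Thymidine kinase Tk1 went from 41.0 and 44.3 TPM to 119 and 115 TPM (limma, adjusted p = 0.0538 with the spread over all 12 libraries), and DNA ligase Lig1 from 29.3 and 26.5 TPM to 74.0 and 66.4 TPM. The members with the highest levels that were not called, Dut and Mcm2, had log2 changes of 0.59 and 0.40.

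Replication genes are known targets of E2F factors. The E2F letters TTTCCCGC occurred in 6 of 31 windows of this list (19.4%) and in 1.24% of all genes, and the second form TTTGGCGC in 6 of 31 and in 0.585% of all genes. For the replication genes with the largest rises and a match of either form upstream of the start, the stretch around it is shown with the match on either strand in capitals.
Cdc6, chr11:98907983-98908050, plus strand: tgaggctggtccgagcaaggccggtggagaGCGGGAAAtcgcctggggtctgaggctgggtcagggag
Mcm5, chr8:75109330-75109397, plus strand: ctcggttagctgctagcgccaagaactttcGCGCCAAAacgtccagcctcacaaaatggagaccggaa
Mcm7, chr5:138172011-138172078, minus strand: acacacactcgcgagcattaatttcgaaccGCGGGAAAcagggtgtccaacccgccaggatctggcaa
Mcm6, chr1:128359715-128359782, minus strand: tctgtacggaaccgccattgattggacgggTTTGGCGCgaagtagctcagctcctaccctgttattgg

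Mitotic genes moved in the same direction. Of 40 measured, 39 had a log2 change above 0 and 14 rose, with a median of 0.86, and none fell. After median-ratio scaling 22 rose and after quantile normalization 18. Top2a, the topoisomerase that untangles sister chromatids, held 66.3 and 75.2 TPM at Pre and 305 and 293 TPM at MCE (log2 change 2.07 ± 0.07, SE; limma, adjusted p = 1.69e-08). The spindle motor Kif11 went from 11.2 and 12.4 TPM to 41.8 and 39.3 TPM, the chromosomal passenger gene Birc5 from 40.0 and 29.7 TPM to 111 and 106 TPM and the checkpoint kinase gene Bub1 from 15.0 and 15.0 TPM to 41.8 and 37.3 TPM. Cyclin A2 (Ccna2) had a log2 change of 0.97 and cyclin B1 (Ccnb1) of 0.86, both just short of the fold of 2. Both were called after median-ratio scaling, and Ccna2 was also called without shFto MCE replicate 2, at 1.03. Late cell-cycle promoters are known for the element CHR, and its letters TTTGAA occurred in 23 of 32 mitotic windows (71.9%) and in 20.2% of all genes. The CCAAT box occurred in 23 of the 32 and in 41.1% of all genes. For 4 mitotic genes that rose the upstream stretch with the CHR letters in capitals is shown.
Top2a, chr11:99024190-99024242, minus strand: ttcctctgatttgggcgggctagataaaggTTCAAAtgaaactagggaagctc
Kif11, chr19:37376333-37376381, plus strand: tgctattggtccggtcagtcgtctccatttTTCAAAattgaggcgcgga
Mki67, chr7:135716442-135716507, minus strand: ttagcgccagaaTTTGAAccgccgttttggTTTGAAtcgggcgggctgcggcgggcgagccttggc
Cdk1, chr10:69352913-69352957, minus strand: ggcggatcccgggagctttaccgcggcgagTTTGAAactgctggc

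Replication-dependent histones, which are made in S phase to package new DNA, had the highest median of the 30 lists. Of 33 measured 29 rose and none fell, with a median log2 change of 2.02. The linker histone H1f2 had the highest level, 65.0 and 66.5 TPM at Pre and 423 and 455 TPM at MCE, and H4c9 went from 10.2 and 12.6 TPM to 113 and 107 TPM. H3c11 went from 3.51 and 3.77 TPM to 43.6 and 35.8 TPM. Most of these genes had a low level, since only 8 of the 29 rises were counted among genes with a mean of 5 TPM or more. H2ac18 was not called, and its replicates differed widely, with 10.6 and 4.92 TPM at Pre and 38.2 and 13.3 TPM at MCE. Histone genes share much of their sequence, so reads may have been split between copies. Per the labels the libraries were made from short RNA fragments to which a poly(A) tail was added.

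**Figure D3:**
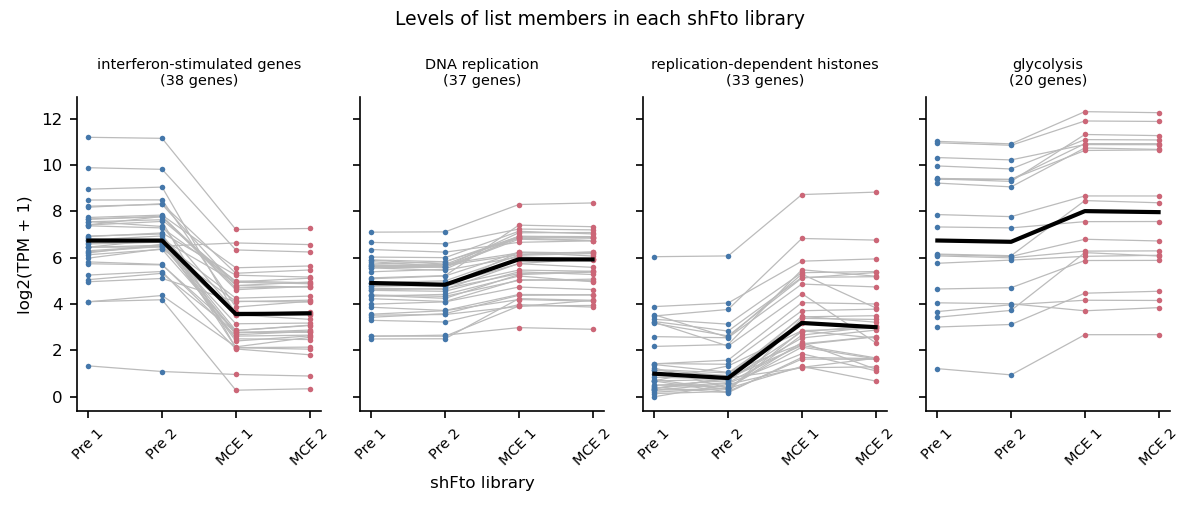
Log2(TPM + 1) of every measured member of 4 lists in the 4 shFto libraries, 1 grey line per gene, with the median of the list in black. The median of the interferon-stimulated genes was lower in both MCE libraries, and the medians of the replication, histone and glycolysis genes were higher in both.

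Of 25 regulators of G1 and S phase measured, 2 rose and 3 fell, shares of 8% and 12% beside 5.42% and 12.8% of all genes. Cyclin E2 (Ccne2), which brings cells into S phase, rose from 5.06 and 6.005 TPM to 17.9 and 21.4 TPM. The CDK inhibitors Cdkn2a, Cdkn2b and Cdkn1a fell by 1.25, 1.22 and 1.19 on the log2 scale, with Cdkn1a going from 309 and 314 TPM to 140.0 and 132 TPM. A further inhibitor, Cdkn2d, rose from 20.3 and 19.1 TPM to 45.8 and 43.8 TPM. Cdkn2a and Cdkn2d were not called when the spread was taken over all 12 libraries. The kinase gene Cdk4 held 378 and 374 TPM at Pre and 411 and 403 TPM at MCE and was not called. Genes that p53 is known to induce were lower, with 10 of 22 measured falling and none rising (median -0.87). They included the polo-like kinase gene Plk2 (-1.83), the stress sensor Gadd45a (-1.81), the BH3-only gene Bbc3 (-1.75) and the growth arrest gene Btg2 (-1.26), each given as a log2 change. After either other scaling 7 of these 22 fell. Bbc3 was not called with the spread over all 12 libraries (limma, adjusted p = 0.0982).

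The lists of genes known to respond to the components of the MDI medium differed in their counts. Of 21 glucocorticoid-responsive genes measured, 13 rose and 1 fell, with a median log2 change of 1.56. Besides Lcn2, Hsd11b1 and Rgs2, they included glutamine synthetase Glul, which rose from 12.1 and 14.5 TPM to 95.4 and 93.6 TPM, and the receptor co-chaperone Fkbp5, which rose from 17.8 and 18.7 TPM to 96.8 and 95.9 TPM. The metallothionein Mt1 rose from 796 and 644 TPM to 4290.2 and 4107 TPM. Tsc22d3, which encodes the glucocorticoid-induced leucine zipper protein, did not follow these genes. It held 135 and 135 TPM at Pre and 118 and 115 TPM at MCE (log2 change -0.21) and was not called. The letters GNACANNNTGTNC, a glucocorticoid response element, occurred in 2 of 15 windows of this list and in 0.536% of all genes.

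Of 19 cyclic AMP-responsive genes measured, 11 rose and 1 fell, with a median of 1.27. Their median in shScram cells was 0.01, a value that rests on the shScram Pre pair. The orphan receptor Nr4a1 held 16.9 and 18.1 TPM at Pre and 295 and 310.2 TPM at MCE (log2 change 4.03 ± 0.11, SE; limma, adjusted p = 4.46e-09). Its relative Nr4a2 went from 4.26 and 4.72 TPM to 26.2 and 30.03 TPM. The phosphodiesterase genes Pde4d and Pde10a, whose enzymes break down cyclic AMP, rose by 3.78 and 3.64 on the log2 scale, and Pde3b rose from 9.23 and 11.6 TPM to 48.3 and 47.9 TPM. Dio2, which activates thyroid hormone, rose from 1.13 and 1.28 TPM to 17.4 and 15.0 TPM. The regulatory subunit gene Prkar2b of protein kinase A had a log2 change of -0.89 and was not called, but it was at -1.01 without shFto Pre replicate 1, where it was. Without that library, or without shFto MCE replicate 2, 2 genes of this list fell. The cyclic AMP response element letters TGACGTCA were found in 2 of 16 windows and in 2.03% of all genes.

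In the insulin and IGF list 5 of 23 genes rose and 2 fell, and 1 fell after either other scaling and without shFto MCE replicate 2. The IGF-binding proteins Igfbp5, Igfbp3 and Igfbp4, which bind and deliver IGF, rose by 3.76, 2.54 and 2.50 on the log2 scale, and Igfbp4 reached 1354 and 1372 TPM at MCE. The rises and falls made up 21.7% and 8.7% of this list, beside 5.42% and 12.8% of all genes. The insulin receptor substrates moved apart. Irs2 rose from 17.1 and 20.8 TPM to 85.4 and 84.1 TPM, and Irs1 fell from 21.7 and 26.0 TPM to 5.85 and 5.43 TPM.

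Of 21 adipogenic transcription factors measured, 4 rose (19%) and 3 fell (14.3%), beside 5.42% and 12.8% of all genes. The falls were 2 after either other scaling. Cebpb and Cebpd were among those that rose. Cebpb (chr2:167688915-167690418) held 346 and 367 TPM at Pre and 1211 and 1273 TPM at MCE, a log2 change of 1.80 ± 0.09 (SE; limma, adjusted p = 1.47e-07), though with the spread over all 12 libraries the adjusted p was 0.0504. Cebpd rose from 37.0 and 40.3 TPM to 146 and 142 TPM, the Krüppel-like factor Klf5 from 3.99 and 5.80 TPM to 21.9 and 21.1 TPM and the helix-loop-helix gene Id2 from 4.36 and 4.06 TPM to 27.4 and 31.1 TPM. Klf4, which acts upstream of C/EBPβ, fell from 71.0 and 73.3 TPM to 20.4 and 19.8 TPM, and the sterol receptor Nr1h3 from 9.44 and 9.17 TPM to 1.76 and 2.38 TPM. Pparg held 9.62 and 9.46 TPM at Pre and 13.9 and 11.6 TPM at MCE (log2 change 0.38 ± 0.11, SE), under the fold of 2. Cebpa held 2.00 and 2.01 TPM and 3.91 and 3.32 TPM (log2 change 0.62) and was not called either.

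Several brakes on adipogenesis fell, 28.6% of the inhibitors measured beside 12.8% of all genes. The median log2 change of the list was -0.10, above the -0.17 of all genes, and 7 inhibitors were above 0. Of 21 inhibitors measured 6 fell and none rose, though 2 rose after median-ratio scaling, 3 after quantile normalization, and 2 without shFto Pre replicate 2 or without shFto MCE replicate 2. Dlk1 (Pref-1), the transmembrane protein that keeps preadipocytes undifferentiated, fell from 1284 and 1272 TPM to 484 and 431 TPM. Klf2, which represses Pparg, fell from 61.0 and 61.4 TPM to 11.2 and 12.1 TPM, and Ddit3, which blocks C/EBP factors by pairing with them, from 449 and 427 TPM to 111 and 115 TPM. Gata3 and Tgfb2 fell by 1.58 and 1.64 on the log2 scale. Outside this list, the co-repressor gene Runx1t1, which the study calls a regulatory factor of adipogenesis, fell by 1.43. Twist1, a mesenchymal repressor, held 62.8 and 70.4 TPM and 79.3 and 77.1 TPM and was not called.

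Of 30 adipocyte markers only 20 passed the minimum, of which 9 rose and 2 fell, or 1 after quantile normalization. Angptl4, an inhibitor of lipoprotein lipase, rose from 5.50 and 5.95 TPM to 92.9 and 92.7 TPM. Fabp4, the fatty acid carrier of fat cells, rose from 9.01 and 6.86 TPM to 44.1 and 52.7 TPM, and hormone-sensitive lipase Lipe from 10.7 and 10.6 TPM to 30.1 and 31.1 TPM. The lipid droplet genes Plin1 and Cidec were called but held at most 3.07 TPM in every library, with Plin1 at 2.73 and 2.26 TPM and Cidec at 2.77 and 3.07 TPM at MCE. Lpl, which was already at 247 and 281 TPM in preadipocytes, held 196 and 199 TPM at MCE and was not called. Among the 10 markers under the minimum were Retn, Cfd, Slc2a4, Lep and Adrb3.

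**Figure D4:**
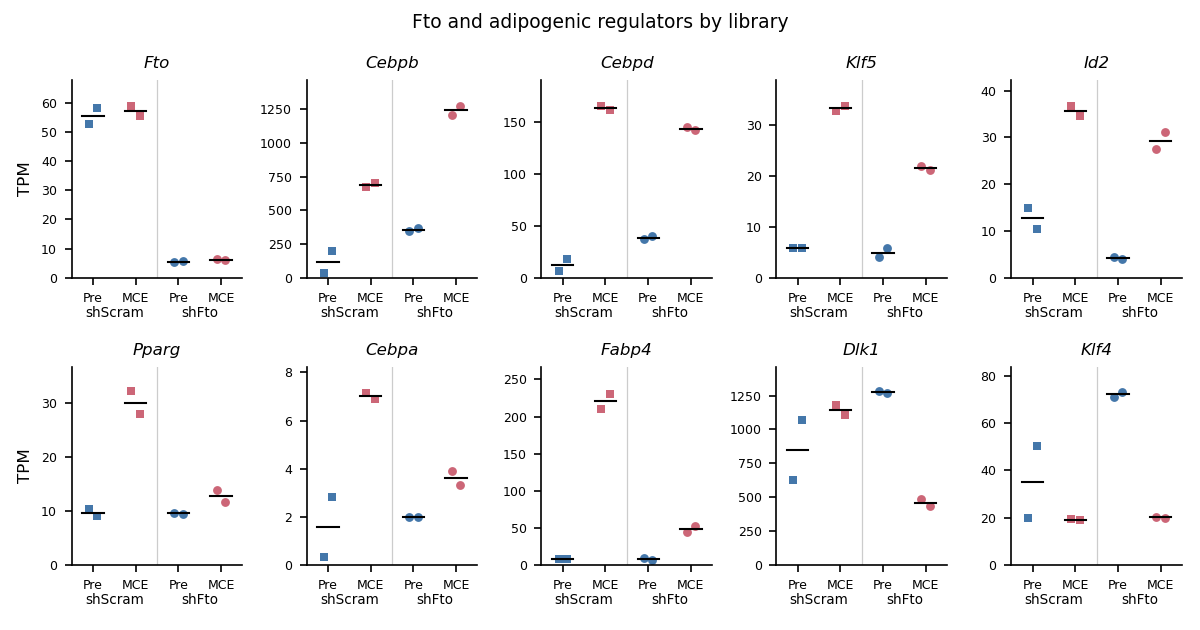
TPM of Fto and 9 regulators or markers of adipogenesis in each shScram (squares) and shFto (circles) library at Pre (blue) and MCE (red), with the mean of the 2 libraries as a bar and a linear axis from 0. In shFto cells Cebpb, Cebpd, Klf5, Id2 and Fabp4 rose and Dlk1 and Klf4 fell, while Pparg and Cebpa changed by less than 2-fold.

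Metabolic genes split by pathway. In glycolysis 11 of 20 measured genes rose and none fell, with a median of 1.20. Lactate dehydrogenase Ldha held 676 and 627 TPM at Pre and 2554 and 2469.9 TPM at MCE, Tpi1 rose from 596 and 532 TPM to 1705 and 1635 TPM and Pgk1 from 685 and 663 TPM to 1940.0 and 1938 TPM. The phosphofructokinase gene Pfkl rose by 2.30 on the log2 scale, and Pdk1, which holds pyruvate back from the mitochondrion, by 2.57 ± 0.11 (SE; limma, adjusted p = 3.59e-08). The letters ACGTG of the hypoxia response element were present in 12 of 20 windows of this list (60.0%) and in 21.8% of all genes. The pyruvate kinase gene Pkm was just under the threshold, at 0.98, and was called after median-ratio scaling and, at 1.04, without shFto Pre replicate 1. None of 44 nuclear genes of the respiratory chain was called, with a median of 0.04, and none of 13 mitochondrially encoded genes, while 18 and 1 of them had an unadjusted p under 0.05 in limma.

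Lipid-making genes fell at about the share of all genes, which was 12.8%. In fatty acid synthesis 2 of 17 genes fell (11.8%), Me1 and Fads2 (by 1.18 and 1.15 on the log2 scale), and none rose. After median-ratio scaling 1 fell. In cholesterol synthesis 2 of 24 genes had a log2 change above 0 and the median was -0.56. There 3 genes fell (12.5%) and 1 rose (4.17%, beside 5.42% of all genes). Fdps and Msmo1 fell by 1.18 and 1.07 on the log2 scale, and Hsd17b7 rose by 1.08. The calls of Fdps and Hsd17b7 held after median-ratio scaling and that of Msmo1 did not. Hsd17b7 was not called without shFto Pre replicate 1 (log2 change 0.95) nor Msmo1 without shFto Pre replicate 2 (-0.99). Without shFto Pre replicate 1 or shFto MCE replicate 1, 5 genes of this list fell. CCAAT, the core of the box that NF-Y binds, was in 16 of 17 windows of this list.

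Housekeeping groups showed no call. None of 61 cytosolic ribosomal protein genes, none of 30 genes of ribosome biogenesis and none of 22 m6A writers, erasers and readers passed the rule in limma, with medians of 0.16, -0.38 and 0.07. At an unadjusted p under 0.05 without a fold, limma gave 22, 20 and 10 genes in these lists. At a smaller fold the reader Hnrnpc had a log2 change of 0.48, and among genes of the ribosome Rplp0 held 4915 and 4283 TPM at Pre and 5706 and 5857 TPM at MCE. Of 26 autophagy genes 1 fell, the cargo receptor Sqstm1, from 1115 and 1155 TPM to 514 and 533 TPM, and it missed the fold of 2 after median-ratio scaling.

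Contractile genes were lower in part. Of 21 smooth muscle and serum response factor (SRF) genes 10 fell and none rose, with a median of -0.96, and the count of 10 was the same after both other scalings. Acta2, smooth muscle actin, held 1049 and 959 TPM at Pre and 165 and 145 TPM at MCE. Ankrd1, a mechanical stress gene, fell from 40.4 and 38.5 TPM to 2.01 and 1.92 TPM and Tagln, an actin-bundling protein, from 98.0 and 98.8 TPM to 22.98 and 21.3 TPM. Ccn1 and Ccn2, matricellular genes driven by YAP and SRF, fell by 2.29 and 1.85 on the log2 scale. The TEAD letters GGAATG were in 10 of 18 windows of this list (55.6%) and in 16.6% of all genes. The tropomyosin gene Tpm4 ran the other way at 0.74 and was not called.

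Collagens and fibrillar matrix genes were divided, with 6 of 33 higher and 6 lower and a median log2 change of 0.25. Each count was 18.2%, beside 5.42% of all genes higher and 12.8% lower. The chains of type I collagen, Col1a1 and Col1a2, fell by 1.43 and 1.47 on the log2 scale, from 1595 and 1577 TPM to 613 and 565 TPM in Col1a1. Col8a1 fell from 41.3 and 53.5 TPM to 3.90 and 2.63 TPM and thrombospondin Thbs1 from 364 and 412 TPM to 61.7 and 54.6 TPM. Col18a1, a basement membrane collagen, rose from 56.7 and 63.1 TPM to 263 and 259.8 TPM, and the small proteoglycan Lum rose by 2.81. Col3a1 had a log2 change of 0.68 and was not called. Among 24 proteases and inhibitors 4 rose (16.7%) and 8 fell (33.3%), beside 5.42% and 12.8% of all genes. The falls included Mmp9 (-2.82), Adamts5 (-2.84) and Timp3 (-2.10), and the rises Adam12 (2.71).

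Acute phase and cytokine genes rose more often than they fell, 15 against 6 of 34. These were 44.1% and 17.6%, beside 5.42% and 12.8% of all genes. The falls reached a log2 change of -2.71, and the called genes named here are all rises. Haptoglobin (Hp) rose from 10.5 and 8.50 TPM to 182 and 187 TPM and serum amyloid Saa3 from 42.1 and 26.6 TPM to 403 and 407 TPM. The interleukin gene Il11 rose from 5.29 and 6.75 TPM to 77.5 and 83.9 TPM, and the alarmin gene Il33 and the receptor antagonist gene Il1rn rose by 3.13 and 3.31 on the log2 scale. The chemokine gene Cxcl12, with 276 and 323 TPM at Pre and 325 and 331 TPM at MCE, was not called.

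A part of the stress genes fell. Of 28 genes of the unfolded protein and amino acid response 8 fell (28.6%, beside 12.8% of all genes) and none rose. The amino acid transporter gene Slc7a5 fell from 239 and 228 TPM to 41.8 and 45.3 TPM, the pseudokinase gene Trib3 from 217 and 197 TPM to 43.2 and 42.9 TPM and serine synthesis gene Phgdh from 503 and 459 TPM to 156 and 164 TPM. The endoplasmic reticulum chaperone genes Hspa5 and Calr had log2 changes of -0.25 and 0.25 and were not called. Among antioxidant genes 6 of 22 rose (27.3%) and 2 fell (9.09%), beside 5.42% and 12.8% of all genes. Metallothionein Mt2 and sulfiredoxin Srxn1 rose by 2.16 and 1.72 on the log2 scale, and heme oxygenase Hmox1 and Gstm1 fell by 1.65 and 1.67.

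Of 16 circadian clock genes 6 fell (37.5%) and 2 rose (12.5%), beside 12.8% and 5.42% of all genes. The median log2 change was -0.12, and the falls were 5 after either other scaling. The PAR-bZIP factor genes Dbp and Tef fell from 32.0 and 30.6 TPM to 2.26 and 2.11 TPM and from 43.6 and 43.6 TPM to 6.70 and 7.92 TPM. The repressors Nr1d1 and Nr1d2 (REV-ERB) fell by 2.46 and 2.53 on the log2 scale. Nfil3, which binds the same sites as Dbp and represses them, rose from 32.0 and 29.9 TPM to 99.8 and 101 TPM, and the core factor Arntl had a log2 change of -0.45 and was not called. The E-box letters CACGTG were in 5 of 14 windows and in 8.09% of all genes. In the Notch, Hedgehog and Wnt list 4 of 22 genes rose (18.2%) and 2 fell (9.09%), beside 5.42% and 12.8% of all genes. On the log2 scale the co-receptor Lrp5 was at 2.16 and Gli2 at 1.66. The Notch ligand Jag1 was at -1.44 and the Wnt receptor Fzd2 at -1.12. Fzd2 was not called with the spread over all 12 libraries.

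Of 13 measured genes taken from the text of the study of rhein and Fto, Cebpb and Fabp4 rose, Runx1t1 fell and 10 were not called. Reep3, at 37.2 and 47.9 TPM at Pre and 59.2 and 59.4 TPM at MCE, and Jak2, at 21.2 and 24.5 and 30.8 and 32.0 TPM, were not called. Atg5, Atg7 and Rpl36 had log2 changes of -0.08, 0.12 and 0.05 and were not called. Among other genes chosen for their role in the cell cycle, Cdk18, a cyclin-dependent kinase family member, fell from 14.7 and 14.7 TPM to 4.59 and 4.80 TPM. The genes Wee1, Cdc25a, Skp2, Cdca7 and E2f3 had log2 changes of 0.31, 0.28, 0.26, 0.14 and -0.04, none of them called.

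The same step in shScram cells shows which of these changes were also seen with Fto present. No library is shared between the lines. Across genes, the changes in both lines correlated with r = 0.668, a description over 13957 genes that share their libraries. In shScram cells 2649 of these genes were called (996 higher, 1653 lower) in the fit over all 12 libraries, whose spread includes the shScram Pre pair, unlike that of the shFto calls. Of these genes 398 were higher and 848 lower in both lines, while 14 were called in opposite directions. Those 398 made up 52.6% of the genes that rose in shFto cells, and the 848 made up 47.6% of those that fell, and they were 40.0% and 51.3% of the genes called higher and lower in shScram cells. The sign of the change in shScram cells was the same for 698 of 757 genes that rose (92.2%) and 1616 of 1781 that fell (90.7%), and for 71.0% of all genes. The interferon-stimulated genes had a median log2 change of -3.93 in shScram cells against -3.07 in shFto cells. DNA replication genes had medians of 0.33 and 0.88, and cholesterol synthesis genes -1.36 and -0.56. In the same order the medians were 0.01 and 1.27 for cyclic AMP-responsive genes and 1.95 and 1.56 for glucocorticoid-responsive genes.

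The difference between the lines was tested gene by gene as the shFto change minus the shScram change, over all 12 libraries. By limma 757 genes (5.42%) passed an adjusted p of 0.05, with 387 (2.77%) more positive and 370 (2.65%) more negative in shFto cells. This count moved by over 1.5 times with each library of the 4 groups left out, and most with shScram Pre, whose replicates stand apart. It was 2168 without shScram Pre replicate 1, 8086 without shScram Pre replicate 2, and 232 to 286 without any one of the other 6 libraries. Leaving out either shScram Pre library also takes the spread of that pair out of the fit. Genes that still passed there are therefore no sign of stability. Of the 2538 genes called in shFto cells, 397 also differed between the lines. The 757 genes included 12 of 38 interferon-stimulated genes, 12 of 24 of cholesterol synthesis and 11 of 37 of DNA replication. They held 9 of 21 glucocorticoid-responsive and 6 of 19 cyclic AMP-responsive genes. There were also 8 of 20 adipocyte markers and 11 of 34 cytokine and acute phase genes, beside 5.42% of all genes.

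Some hormone and adipogenic genes were among the differences. Tsc22d3 held 87.0 and 105 TPM in shScram Pre and 569 and 546 TPM in shScram MCE, so that its log2 change was 2.53 there against -0.21 in shFto cells (limma interaction, adjusted p = 0.000182). Fabp4 reached 211 and 231 TPM at MCE in shScram cells, and its change was smaller in shFto cells by 2.13 ± 0.22 (SE; limma interaction, adjusted p = 0.00129). Pparg held 10.3 and 9.06 TPM at Pre and 32.1 and 27.9 TPM at MCE in shScram cells, and its change differed by -1.16 (limma interaction, adjusted p = 0.0142). Dlk1, which fell in shFto cells, held 627 and 1072 TPM at Pre and 1182 and 1106 TPM at MCE in shScram cells (interaction -1.96; limma, adjusted p = 0.00952). For Cebpb, with 35.9 and 199.6 TPM and 676 and 701 TPM in shScram cells, the difference of -1.21 was not past the threshold (limma interaction, adjusted p = 0.392).

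Il1rl1, the receptor of IL-33, rose from 26.0 and 31.3 TPM to 156 and 151 TPM in shFto cells and held 58.3 and 64.2 TPM and 27.9 and 25.8 TPM in shScram cells. Rhob, a small GTPase, went the other way, from 324 and 323 TPM to 106 and 107 TPM in shFto cells and from 32.2 and 83.5 TPM to 224 and 218 TPM in shScram cells. Nr1d1 fell in shFto cells and held 6.41 and 8.31 TPM and 18.2 and 12.5 TPM in shScram cells. Ear2, of the eosinophil ribonuclease family, rose from 1.19 and 2.07 TPM to 12.8 and 11.5 TPM in shFto cells and held 0.444 and 0 TPM and 161 and 176 TPM in shScram cells. The log2 changes of Il1rl1, Rhob and Nr1d1 had opposite signs in the lines, and that of Ear2 had the same sign and a different size.

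**Figure D5:**
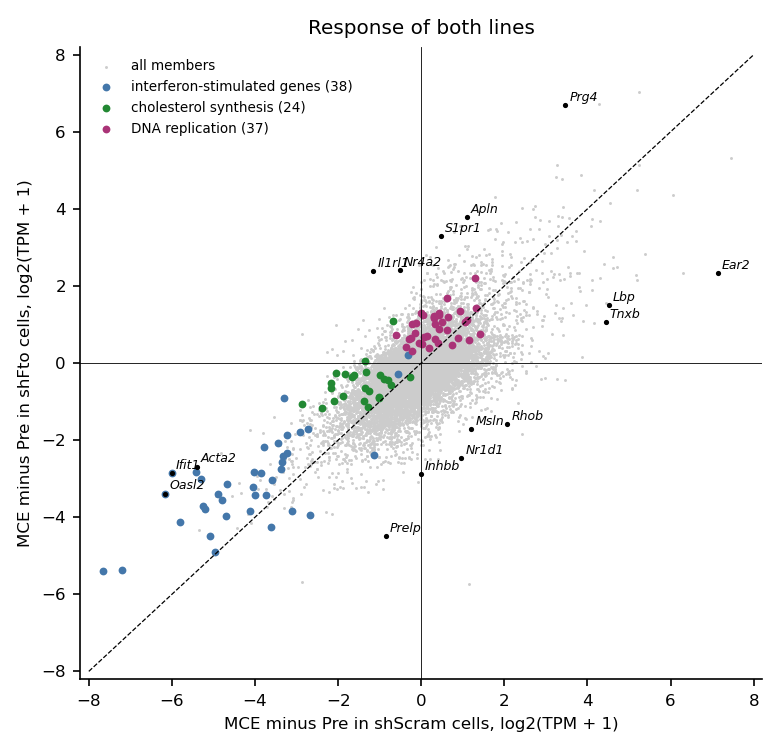
Log2 change from Pre to MCE in shFto cells (vertical) against the same in shScram cells (horizontal), 1 point per gene, with the dashed line of equality. Interferon-stimulated genes lay low in both lines. Above the line lay 34 of 38 of them, 33 of 37 DNA replication genes and 23 of 24 cholesterol synthesis genes, beside 6735 of all 13957 genes. These positions rest on the shScram Pre pair, whose replicates stand apart. The genes labelled are the 16 with the most positive or most negative differences among those named.

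Called genes also differed in type. Protein-coding genes made up 83.2% of the genes that rose, 74.2% of those that fell and 85.7% of those not called. The median GC content was 50.9%, 51.4% and 49.3% in the same order, and the median transcript length was 2633, 2682 and 3063 bases. After a correction for GC content 2505 genes were called, 747 of them higher.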

How the data were processed

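RNA-seq was made from 12 libraries of 3T3-L1 cells, 2 for each of 2 lines (shFto, shScram) at 3 stages (Pre, MCE, Diff). The deposited table holds TPM values per gene, which the authors estimated with StringTie (2.1.4) and Ensembl annotation. Before that, adapters had been removed with Trim Galore (0.6.5) and reads had been mapped with HISAT2 (2.1.0), with GRCm38 as the reference. The authors called differential genes with DESeq2 (1.30.1) on counts, which TPM values do not allow, so limma (3.58.1, R 4.3.3) was used here, after it was tested on generated data. Whether the counting used strand is not given in the sources used here.

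Genes with 1 TPM or more in 2 or more of the 12 libraries were tested (15968) on log2(TPM + 1), with 1 mean per group, an eBayes trend and Benjamini-Hochberg adjustment over all of them, two-sided. MCE against Pre was fitted over 10 libraries (5 residual degrees of freedom), without shScram Pre, and called at an adjusted p under 0.05 and a fold over 2. The difference between the lines was fitted over 12 libraries and called at an adjusted p under 0.05. The title of shScram Diff replicate 1 and its treatment label disagree on the hairpin, and the title was followed. Fto held 73.5 TPM in this library and 70.8 TPM in replicate 2, and the library enters only the spread. The members and the 30 gene lists were chosen with earlier results of these data known. The genes named are, by rule, the 12 largest called changes in each direction with 10 TPM or more in the higher group, up to 6 called and 2 uncalled genes of each list, a list of genes from the study and from earlier results, and the 8 most positive and 8 most negative differences between the lines. The text prints a part of these and describes the rest by counts, and some genes are not reported here.

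The alternatives tried were the pseudocount, the filter, the scaling, the libraries in the fit, the eBayes trend, a replicate block and leaving out each library. A correction for GC content and a fit without shScram Diff replicate 1 were added after seeing the data. Annotation was matched for 99.5% of the gene IDs (GENCODE M21). Promoter windows are RefSeq sequence of GRCm38.p6, and the stretches shown are those of the genes with the largest changes that held a match upstream of the start. Python 3.11.15, numpy 2.4.6, pandas 2.3.3 and matplotlib 3.10.9 were used.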

Additional observations from a re-analysis of the deposited data

Results flagged for a closer look

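The genes below are those whose change from Pre to MCE differed between shFto and shScram cells in a test of the difference itself (limma interaction over 12 libraries, adjusted p under 0.05), taken as the 8 most positive and the 8 most negative differences among called genes. They were picked for the size of this difference, so their values are a description. Each difference is the shFto log2 change minus the shScram log2 change. No group has enough libraries for a test of single outlying libraries.

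Among the more positive differences, some genes fell less in shFto cells. Ifit1, an antiviral protein, fell in both lines and differed by 3.15 ± 0.52 (SE), with changes of -2.85 in shFto and -6.01 in shScram cells. Oasl2, an oligoadenylate synthetase-like protein, differed by 2.78 ± 0.24, with -3.39 and -6.17 in the same order. Acta2, smooth muscle actin, differed by 2.71 ± 0.29, with -2.69 and -5.40. Other genes rose more. Il1rl1, the IL-33 receptor, differed by 3.55 ± 0.17, with 2.39 and -1.16. For Prg4 the difference was 3.23, for the orphan receptor Nr4a2 2.92, for the sphingosine phosphate receptor S1pr1 2.81 and for the peptide hormone gene Apln 2.69. S1pr1 held 3.38 and 4.38 TPM at Pre and 46.6 and 46.0 TPM at MCE in shFto cells, and 9.12 and 5.75 TPM and 10.6 and 10.3 TPM in shScram cells. Apln held 2.35 and 2.01 TPM and 40.6 and 45.7 TPM in shFto cells, and 5.92 and 11.2 TPM and 19.3 and 18.1 TPM in shScram cells.

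Among the more negative differences, Ear2, Tnxb and Lbp rose in both lines and by less in shFto cells. Ear2 differed by -4.80 ± 0.36, with changes of 2.34 in shFto and 7.14 in shScram cells. The matrix glycoprotein gene Tnxb differed by -3.37, with 1.07 and 4.44, and the lipopolysaccharide-binding protein gene Lbp by -3.01, with 1.49 and 4.51. Rhob differed by -3.66 ± 0.48, the clock repressor Nr1d1 by -3.42 and the mesothelial surface gene Msln by -2.92. Prelp differed by -3.63, and in shScram cells it held 19.4 and 22.3 TPM at Pre and 11.9 and 10.3 TPM at MCE. The inhibin subunit gene Inhbb differed by -2.86, with changes of -2.88 and -0.02. The shScram values rest on shScram Pre, whose replicates stand apart, and its part in these differences was not tested beyond the fits without either replicate.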

How the results depend on the processing

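MCE against Pre in shFto cells gave 2538 called genes, and 2161 to 3072 under every alternative but the filter of a mean of 5 TPM or more, which left fewer genes to test and called 1593, of which 1040 fell. Quantile normalization left 1148 genes that fell, against 1781. Leaving out each library gave 2432 to 2616. The difference between the lines was the less stable result, with 757 genes in all, 387 positive and 370 negative. It was 213 (111 positive, 102 negative) with the libraries of the contrast only, 1214 (601 positive, 613 negative) after a correction for GC content and 464 (238 positive, 226 negative) without shScram Diff replicate 1. Without a filter 245 were negative. Leaving out each library gave 232 to 8086 genes, 115 to 3345 of them positive and 110 to 4741 negative, and the cause was not tested beyond those counts. With 1 library left in a group, that library is taken to vary like the other groups. Of the genes shown for this difference, Ifit1 missed the threshold without any one of 5 libraries (adjusted p 0.0504 to 0.0636 in limma), Msln without any one of 3 and Tnxb without 1, and Msln and Tnxb also with the libraries of the contrast only. Vim had a log2 change of 0.0476 after median-ratio scaling against -0.12 as reported. Genes that were not called and lay near 0 changed sign. E2f3 was at 0.122 after median-ratio scaling and 0.169 after quantile normalization, and at -0.144 to 0.0694 with each library left out. Atg5 was at 0.0818 and 0.0824 after the same scalings, and at -0.203 to 0.0377 with each library left out. Atg7 was at -0.107 to 0.347 and Rpl36 at -0.163 to 0.267 with each library left out, and Rpl36 was at -0.120 after quantile normalization. The replicate numbers did not pair the libraries (r = 0.0186 between the deviations of replicate 1 from its group mean at Pre and at MCE in shFto cells). A replicate block gave 2540 genes called in shFto cells, 758 of them higher, and 252 positive differences between the lines, and it changed no call of a gene named in the text. TPM values hold no depth, so no limit of detection can be given.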

Other observations

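2 of the 13957 genes were listed at 0 in one replicate of a stage and at 10 TPM or more in the other, and neither was called. The pseudogene Rps18-ps6, which shares sequence with the ribosomal protein gene Rps18, was listed at 2972 and 2672 TPM at Pre and at 2796 and 0 TPM at MCE. Fyb, an adaptor protein gene of blood cells, was listed at 15.2 and 8.28 TPM at Pre and at 0 and 10.2 TPM at MCE. A value of 0 in this table can thus stand beside a high value in the replicate, and these genes were chosen after their values were seen.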
